A study of Mus musculus with 2 samples.

Results

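The expressed antisense noncoding genes of the mouse hippocampus were the 172 genes whose every annotated transcript is of the antisense class and whose level was at least 1 TPM in both libraries. TPM is the abundance of a gene's transcripts, corrected for length and scaled to a fixed sum per library. Of the 2948 genes annotated as antisense, 174 (5.9%) reached that level, and 2 of these were among 4 genes that the rule left out by name. The other 2776 antisense genes are the ones the 172 are set beside, among 55536 annotated genes in all. The members were thus chosen by the TPM values of these same libraries, so their levels are a description and were not tested.

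Hippocampus came from males of B6CASTF1/J, an F1 hybrid of C57BL/6J with CAST/EiJ, aged 2 months, with the tissue labelled as a layer. Both libraries formed 1 untreated group, with biological replicate numbers 1 and 2. Per the labels, each library was made from 300 ng of total RNA purified with a Norgen kit, and carried ERCC spike-ins of a mix meant for stranded, ribosome-reduced libraries. The labels give the same donor identifier, that of the strain, for both, so that the spread between the libraries is the only error available and may in part be technical.

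Antisense noncoding genes are transcribed from the strand opposite to another gene, usually a coding one. Some begin at the same CpG-rich promoter as the coding gene and run away from it, some run into it from beyond its end, and some lie wholly inside it. In brain, several are known to lie beside genes of transcription factors and ion channels, and a few have been shown to act on the neighbouring gene or its protein, while for most no function is known.

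Expected counts estimate the reads assigned to each entry, with numbered entries and spike-ins listed besides the genes. Their total over all entries was 31422827 in replicate 1 and 31303010 in replicate 2. The 172 genes held 27065.5 of these counts in replicate 1 and 26411.0 in replicate 2, or 0.0861% and 0.0844%. Markers of hippocampal neurons were present, with 8 of 8 at 1 TPM or more in both libraries and mean levels from 24.8 to 1437 TPM. Summed markers of the choroid plexus came to 14.9 TPM in replicate 1 and 27.5 TPM in replicate 2, with 2 of 4 at 1 TPM in both, and their part in any value below was not tested.

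Promoter sequences are shown first for the members whose start lies beside that of a coding gene, because such members made up 86 of the 172, as described below. RefSeq promoter windows of build GRCm38.p6, running from 250 bases before to 50 bases after an annotated start, were found for 66 of the 172 genes by symbol and by a start within 100 bases of a GENCODE M21 transcript start. The 5 windows below belong to the highest members with a start within 1000 bases of an opposite-strand coding start and with no base in a coding gene's exon. Distance was taken from the outermost GENCODE start, and the RefSeq start of 1600020E01Rik lies 1154 bases inside the gene and 1080 bases from the start of Pcbp1. The window of Rab10os is added for contrast, since no opposite-strand coding start lies within 5000 bases of it. Capitals mark any of 4 motifs, searched on both strands: GGGCGG is the core of the GC box that Sp factors bind; CCAAT and the word TATAAA are core promoter letters; the palindrome TGACGTCA is bound by cyclic AMP response factors.
Tug1, chr11:3648765-3649064, minus strand: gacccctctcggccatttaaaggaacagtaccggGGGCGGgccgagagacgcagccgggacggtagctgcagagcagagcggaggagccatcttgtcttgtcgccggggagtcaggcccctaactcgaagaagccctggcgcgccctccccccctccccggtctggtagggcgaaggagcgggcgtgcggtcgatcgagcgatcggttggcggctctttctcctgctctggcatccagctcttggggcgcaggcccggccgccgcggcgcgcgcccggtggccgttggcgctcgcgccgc
Gm26782, chr14:50870046-50870345, plus strand: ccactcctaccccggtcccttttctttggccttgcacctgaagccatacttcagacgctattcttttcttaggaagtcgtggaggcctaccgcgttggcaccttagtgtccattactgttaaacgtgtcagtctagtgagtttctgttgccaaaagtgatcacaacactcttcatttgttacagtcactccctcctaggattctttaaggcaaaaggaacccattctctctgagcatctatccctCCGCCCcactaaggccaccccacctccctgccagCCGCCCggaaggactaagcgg
A330009N23Rik, chr15:101225137-101225436, minus strand: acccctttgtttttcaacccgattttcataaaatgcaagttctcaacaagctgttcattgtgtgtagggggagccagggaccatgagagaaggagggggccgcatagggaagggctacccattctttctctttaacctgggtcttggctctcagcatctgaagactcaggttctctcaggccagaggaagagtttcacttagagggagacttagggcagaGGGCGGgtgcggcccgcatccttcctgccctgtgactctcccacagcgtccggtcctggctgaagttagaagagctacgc
Rab26os, chr17:24528001-24528300, plus strand: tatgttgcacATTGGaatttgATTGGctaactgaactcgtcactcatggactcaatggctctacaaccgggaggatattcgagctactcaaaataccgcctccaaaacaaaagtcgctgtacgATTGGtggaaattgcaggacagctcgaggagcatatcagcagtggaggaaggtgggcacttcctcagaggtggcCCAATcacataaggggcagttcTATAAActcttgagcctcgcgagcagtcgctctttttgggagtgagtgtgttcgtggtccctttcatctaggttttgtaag
1600020E01Rik, chr6:86527151-86527450, plus strand: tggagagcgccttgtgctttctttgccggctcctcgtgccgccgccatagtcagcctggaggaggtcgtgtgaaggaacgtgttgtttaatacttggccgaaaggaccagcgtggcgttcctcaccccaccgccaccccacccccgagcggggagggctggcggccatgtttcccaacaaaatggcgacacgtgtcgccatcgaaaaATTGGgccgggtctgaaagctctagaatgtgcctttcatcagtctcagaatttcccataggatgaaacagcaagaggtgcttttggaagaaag
Rab10os, chr12:3235541-3235840, plus strand: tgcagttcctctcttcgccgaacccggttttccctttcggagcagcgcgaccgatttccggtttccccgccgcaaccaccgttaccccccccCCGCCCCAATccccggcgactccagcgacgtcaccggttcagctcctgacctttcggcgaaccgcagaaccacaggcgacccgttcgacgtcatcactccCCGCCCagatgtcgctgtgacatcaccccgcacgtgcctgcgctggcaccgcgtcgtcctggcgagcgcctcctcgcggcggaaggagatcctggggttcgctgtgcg
The windows of Tug1 and Rab10os held 37 and 39 CG pairs, and those of A330009N23Rik, Gm26782 and Rab26os held 8, 10 and 11. Rab26os was the member of the printed set with a TATAAA word, and its window also held CCAAT letters on both strands. In the Rab10os window, a GC box and a CCAAT box share a base.

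Over all 66 windows, the median was 20 CG pairs, against 7 in all 32851 RefSeq windows of the same length. GC-box letters occurred in 36 of the 66 (54.5%), against 35.7% of all windows, and CCAAT letters in 29 (43.9%), against 37.4%. TATAAA letters occurred in 5 (7.58%), against 13.6%, and TGACGTCA in 0 of 66, against 1.79%. Among members with a coding start within 1000 bases, the median was 24 CG pairs and 24 of 37 windows (64.9%) held the GC box. The remaining members had a median of 16 CG pairs, with the GC box in 12 of 29 (41.4%). The windows found for other antisense genes numbered 633, with a median of 5 CG pairs and the GC box in 26.9%. The members had passed a level filter that the RefSeq windows had not, so these sets differ in more than gene class. Most of the 66 member windows also lie in part or wholly on exons of coding genes, those of 9130221H12Rik and C230037L18Rik with all 300 bases. The letters counted in the members are thus partly those of coding exons. These letters describe the windows, and no factor's binding was measured here.

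In 3 pairs shown here, the whole stretch between an antisense start and the start of the coding gene that runs the other way lay in such a window and outside coding exons. The stretch is printed because it is all the sequence that separates the pair, read on the antisense strand from the coding start towards the antisense start.
Gm4285 and Tpt1, chr14:75844965-75845092: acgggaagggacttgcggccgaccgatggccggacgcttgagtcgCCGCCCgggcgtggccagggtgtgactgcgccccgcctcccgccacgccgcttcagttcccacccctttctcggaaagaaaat
Atad3aos and Atad3a, chr4:155761094-155761177: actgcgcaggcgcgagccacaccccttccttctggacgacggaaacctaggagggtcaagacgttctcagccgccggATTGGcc
B9d1os and B9d1, chr11:61505060-61505143: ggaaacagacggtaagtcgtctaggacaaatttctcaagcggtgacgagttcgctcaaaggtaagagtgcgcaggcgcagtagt
Of these, Gm4285 was at 1.88 and 2.21 TPM in replicates 1 and 2, while Tpt1, the translationally controlled tumour protein gene, was at 379.4 and 333.4 TPM. Its shared stretch of 128 bases held 16 CG pairs and a GC box. The stretches of Atad3aos and B9d1os, of 84 bases each, held 8 and 7 CG pairs and no GC box. The coding member of each of these 3 pairs was the higher one in both libraries, by more than the libraries differed.

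Levels of the antisense genes were low. Their median of mean TPM was 2.4, and mean levels ran from 1.1 to 46.9 TPM. Beside this, the median was 12.8 TPM over all 14560 genes at 1 TPM in both libraries, 14.7 TPM over coding ones and 2.95 TPM over long intergenic noncoding ones. The share of annotated genes that reached 1 TPM in both was 26.2% over all genes, 57.9% of coding genes and 4.56% of long intergenic ones. Under 2 TPM were 67 members, 73 lay from 2 to under 5 TPM, 32 were at 5 TPM or more and 11 at 10 TPM or more. Of all 2948 antisense genes, 1520 were listed at 0 TPM in both libraries. In whole tissue, fewer cells of a type and less RNA per cell cannot be told apart, so a low level may belong to few cells or to many.

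At the border of the rule, Man2c1os was at 1.70 and 1.01 TPM, Gm20387 at 1.40 and 1.03 TPM and Gm10353 at 1.64 and 1.04 TPM. Just outside it were Gm9917 at 1.19 and 0.99 TPM, Gm15743 at 2.14 and 0.98 TPM and Gm17597 at 1.23 and 0.98 TPM. A further measure of this edge is that 56 antisense genes reached 1 TPM in exactly 1 library, and that 47 members had a deposited TPM interval whose lower bound was under 1 TPM in a library.

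Tug1, a long noncoding RNA first described as upregulated by taurine in retina, was the highest member, with 47.09 TPM in replicate 1 and 46.65 in replicate 2 (46.9 ± 0.311, SD, n = 2). It made up 7.15% of the members' summed mean TPM, and the 10 highest made up 28.2%. It lies on chromosome 11 from 3639785 to 3649673 in mm10, minus strand, and its outermost start overlaps that of Morc2a by 482 bases. Morc2a, an ATPase whose human counterpart takes part in silencing by the HUSH complex, was at 17.33 and 15.74 TPM. From the RefSeq start, 859 bases inside the annotated gene, 377 bases separate Tug1 from Morc2a instead. The antisense member of the pair was the higher in both libraries. Its most abundant of 8 transcripts held 29.6% of its TPM, so no single transcript carried the gene.

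**Figure D1:**
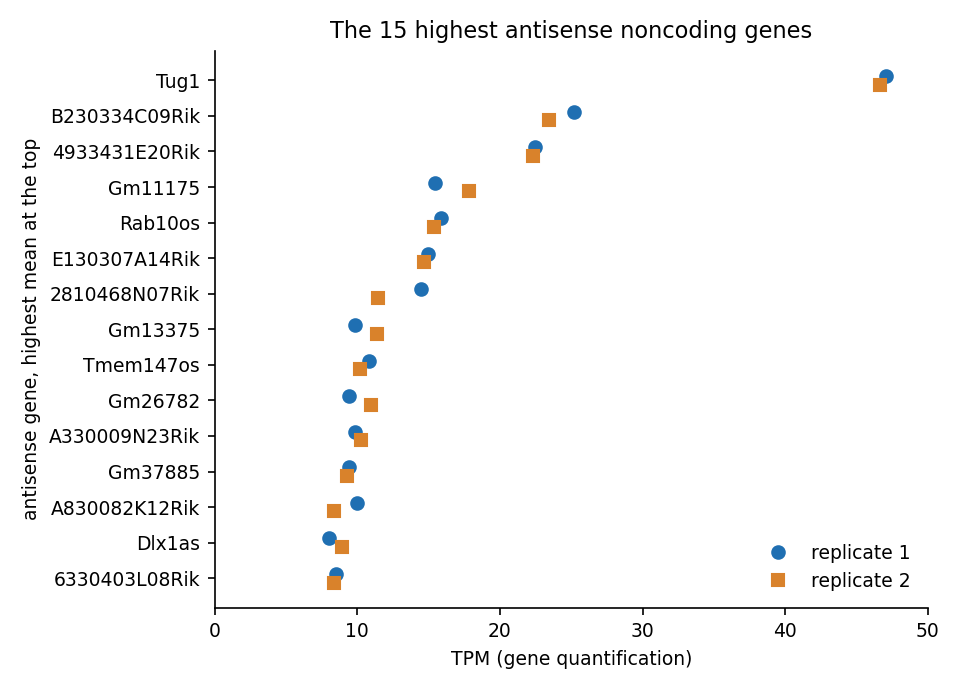
TPM of the 15 highest antisense genes (vertical axis, highest mean at the top) in replicate 1 (circles) and replicate 2 (squares), on a linear axis that starts at 0. Tug1 stands at 47.09 and 46.65 TPM, above B230334C09Rik at 25.18 and 23.43 TPM, and the widest gap between the libraries is that of 2810468N07Rik, at 14.46 and 11.47 TPM.

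B230334C09Rik followed, at 25.18 and 23.43 TPM. It is a single-transcript gene on chromosome 3 from 158067186 to 158076112, whose end overlaps the end of Lrrc40, a leucine-rich repeat gene at 11.43 and 12.53 TPM. It had the most reads of any member, 4999 and 4778 expected counts. 4933431E20Rik was at 22.43 and 22.30 TPM and its start overlaps that of Gstm5, a glutathione S-transferase gene, by 392 bases. Gstm5 was at 123.8 and 122.3 TPM. At its other end it overlaps Eps8l3, listed at 0 TPM in both libraries, so that 1 antisense gene touched a high and a silent coding gene.

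Gm11175 was at 15.45 and 17.80 TPM. All of its exonic bases lie on exonic bases of Jund, a subunit of the AP-1 transcription factor, which was at 73.6 and 82.2 TPM. It rested on 118 and 138 expected counts. E130307A14Rik was at 14.98 and 14.64 TPM, with its start 111 bases from that of Rev3l, the catalytic subunit of DNA polymerase zeta, at 16.06 and 14.23 TPM. Here the antisense gene and the gene it diverges from were level, and their order differed between the libraries.

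Beside genes of transcription factors, 2810468N07Rik was at 14.46 and 11.47 TPM and overlaps the start of Sox8, a factor of the oligodendrocyte lineage, at 19.41 and 20.81 TPM. A830082K12Rik was at 9.99 and 8.38 TPM and overlaps Nr2f1, a nuclear receptor that patterns the cortex, at 36.4 and 37.8 TPM. Gm2164 was at 3.28 and 6.13 TPM beside Pou3f1 at 16.57 and 18.48 TPM, on only 24 and 46 expected counts. In a list of 24 transcription factor genes, written with the values known, 25 members overlapped a listed gene or took its name, with a median of 2.81 TPM against 18.1 TPM for the factors. The antisense gene was higher in 3 of these 25, and in 38 of the 160 overlap pairs described below.

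Dlx1as takes its name from Dlx1, a homeobox gene of forebrain interneurons, and was at 8.04 and 8.90 TPM. Dlx1 itself was at 7.14 and 7.06 TPM, so the antisense gene was the higher in both libraries. The pair was set side by side after its values were seen. By bases of overlap its partner is a different gene, Metap1d, a mitochondrial methionine aminopeptidase at 9.79 and 10.28 TPM. No exonic base of Dlx1as lies on an exon of Metap1d. All 335 of its exonic bases on opposite exons lie on a second coding gene that Dlx1as overlaps. One transcript of 4 held 72.9% of the TPM of Dlx1as.

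Beside genes of channels, receptors and synaptic adhesion, as over all overlap pairs, the antisense genes were mostly lower than the sense genes. Over all 160 overlap pairs, the medians were 2.36 and 15.1 TPM, and the antisense gene was higher in 38. Over 14 such pairs, chosen with the values known, the medians were 1.75 TPM for the antisense and 22.2 TPM for the sense genes, and the antisense gene was higher in 1, Gm16638 with Tmc3. Gm14964 was at 1.44 and 1.75 TPM inside Nrxn2, a presynaptic neurexin at 177.9 and 173.8 TPM, or 0.907% of it. A830092H15Rik was at 3.40 and 3.15 TPM at the start of Nlgn1, a postsynaptic neuroligin at 43.98 and 41.94 TPM. Gm9885 was at 1.99 TPM in both libraries inside Ntrk3, the receptor of neurotrophin 3, at 92.1 and 83.1 TPM. Outside that list, Gm16536 was at 6.48 and 6.65 TPM inside Bace1, the beta-secretase that cuts the amyloid precursor protein, at 32.7 and 30.5 TPM. In none of these named pairs did the ranges of antisense and sense levels meet.

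The expressed genes lay more often at the starts and ends of coding genes, and less often inside them, than the other antisense genes, by counts that were not tested. An opposite-strand coding gene was overlapped by 160 of 172 (93.0%) of the expressed ones and by 2560 of 2776 (92.2%) of the others. Overlap at the 5′ ends was found in 67 (39.0%) against 534 (19.2%), and overlap at the 3′ ends in 41 (23.8%) against 374 (13.5%). Lying wholly inside the coding gene was found in 42 (24.4%) against 1565 (56.4%). A start within 1000 bases of an opposite-strand coding start was found in 86 (50%) against 535 (19.3%). These 86 comprised 27 with a space between the starts and 59 whose starts overlap.

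**Figure D2:**
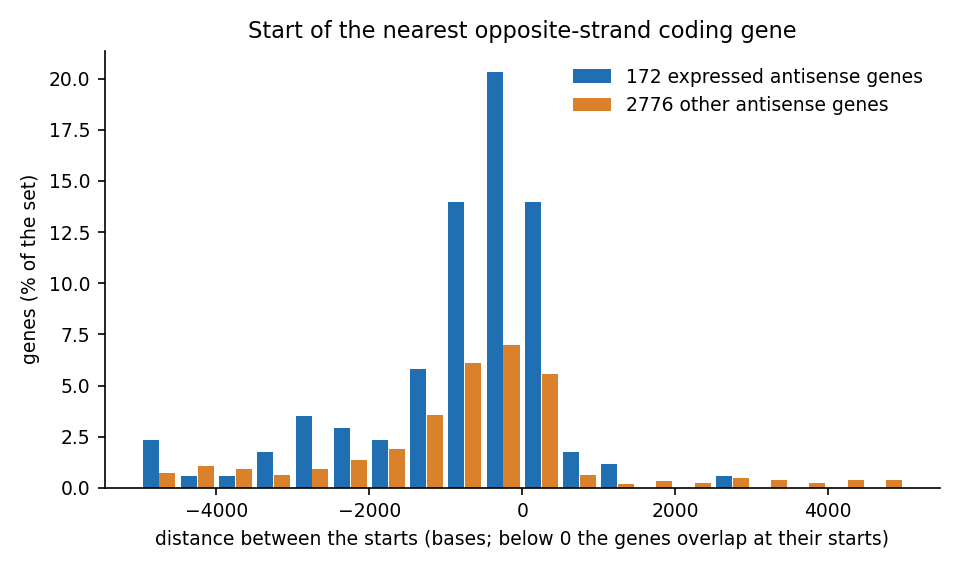
Distance from the start of an antisense gene to the nearest opposite-strand coding start within 5000 bases (horizontal axis, bases, bins of 500) against the share of the set in percent, for the 172 expressed (left bar) and 2776 other antisense genes (right bar). Below 0 the genes overlap at their starts, are nested, or run towards each other, as Gm26982 and Ghrl do. The tallest bar, from −500 to 0 bases, holds 20.3% of the expressed and 6.99% of the other genes.

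Coding neighbours were compared in the same way. In the 86 pairs with near starts, the coding gene was at 1 TPM or more in both libraries in 82, with a median of 20.4 TPM, against 406 of 535 and 8.02 TPM for the other antisense genes. Exon lay on exon for 136 expressed genes (79.1%) and for 1529 others (55.1%). The expressed genes had a median of 1720 exonic bases, against 881.5, and 73 (42.4%) had a single annotated transcript, against 2168 (78.1%). Single-exon genes made up 28 (16.3%), against 159 (5.73%). None was on the X chromosome, against 45 (1.62%) of the others. A longer gene gets more reads at a given TPM, and the part of length in which genes passed the rule was not tested.

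Against the coding gene they overlap by most bases, the antisense genes were mostly the lower partner. In 160 pairs with 158 distinct coding genes, the antisense gene was lower in 122 and higher in 38, and in 36 it was higher in both libraries. The median difference was −2.29 on the log2(TPM + 0.1) scale, antisense minus sense. In 52 pairs the antisense level was under 10% of the sense level, and in 1 it was under 1%. Across the 160 pairs, which share both libraries, Pearson's r of the log2 levels was −0.111 and Spearman's rho −0.0716, as a description.

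In 24 of the 38 pairs with the antisense gene higher, the coding gene was itself under 1 TPM, and in 9 of the 160 it was listed at 0. The rule holds every member at 1 TPM or more, so beside a coding gene under 1 TPM the antisense gene is always the higher. Tmem147os at 10.79 and 10.16 TPM spans Gapdhs, the sperm glyceraldehyde-3-phosphate dehydrogenase, which was listed at 0. Gm26982 at 4.57 and 4.03 TPM overlaps the end of Ghrl, the ghrelin gene, also listed at 0, by only 3 bases. Gm15879, Gm16008, Gm17116, Gm15941 and Gm49685 likewise lay on coding genes listed at 0, with mean levels from 3.07 to 5.005 TPM. Gm10501 at 4.28 and 4.10 TPM overlaps Hspa1l, a heat shock protein gene, at 0.18 and 0.08 TPM. Gapdhs and Hspa1l are known mainly from testis, and Ghrl from stomach.

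The 14 pairs with the antisense gene higher over a coding gene at 1 TPM or more included Tug1 with Morc2a and B230334C09Rik with Lrrc40, both given above. Gm26782 was at 9.42 and 10.95 TPM against Tep1, the telomerase-associated protein gene, at 1.32 and 1.35 TPM. Gm2415 was at 7.99 and 8.03 TPM against Itga9, an integrin subunit, at 1.92 and 1.45 TPM. Gm4673 was at 5.24 and 4.90 TPM against Lsr, a lipoprotein receptor, at 3.05 and 3.12 TPM. In these 5 pairs the libraries did not overlap. Gm2415 has no exonic base on Itga9, and its start overlaps by 2 bases that of Ctdspl, at 9.75 and 9.97 TPM. Gm4673 starts 106 bases from Usf2, at 55.69 and 45.95 TPM. Against these neighbours at their starts, both antisense genes were the lower. In 2 of the 14, Gm48780 with Arg2 and Tomm6os with Gm21981, the order differed between the libraries.

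**Figure D3:**
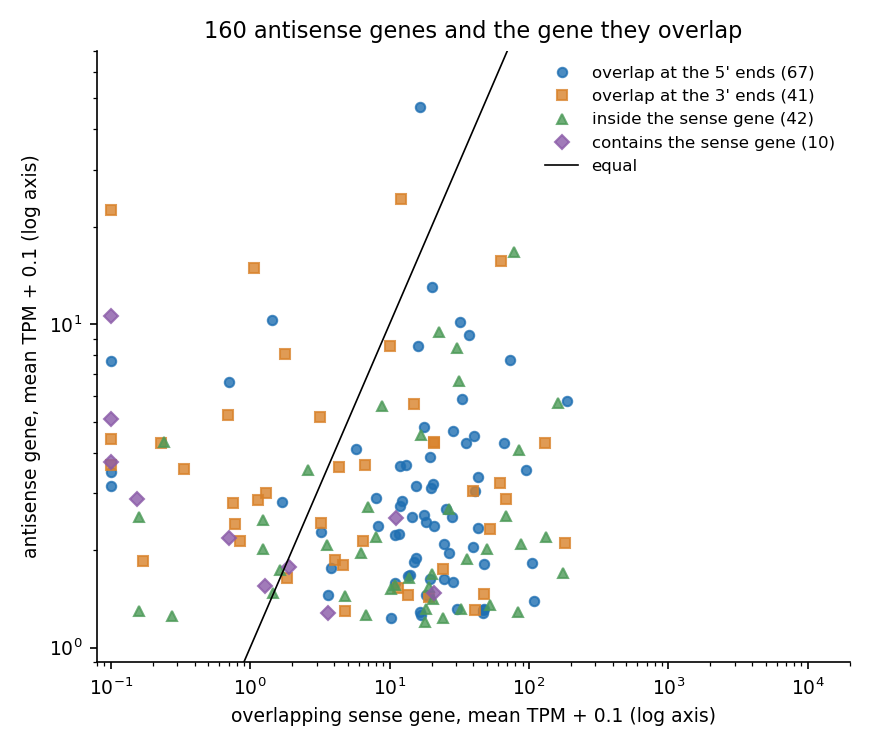
Mean TPM + 0.1 of 160 antisense genes (vertical log axis) against that of the coding gene each overlaps by most bases (horizontal log axis), by layout. Points above the line are the 38 pairs with the antisense gene higher, and the column at the left edge holds the 9 coding genes listed at 0.

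The balance was taken for each layout, with no test between layouts. With overlap at the 5′ ends, the antisense gene was higher in 7 of 67, with a median difference of −2.90 on the log2 scale. With the antisense gene inside the coding gene it was higher in 9 of 42, with a median of −2.59. Overlap at the 3′ ends gave 16 of 41 and a median of −0.85, and the 10 genes that contain a coding gene gave 6 and a median of 0.96. The median levels of the antisense genes themselves were close, from 1.89 TPM inside a coding gene to 2.915 TPM with overlap at the 3′ ends. The coding genes' medians ran from 0.8875 TPM where contained to 18.2 TPM with overlap at the 5′ ends. The rule holds antisense levels at 1 TPM or more and sets no limit on coding levels, so the 2 ranges are not alike.

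A sense gene is given by name for 22 members, whose symbols end in os for opposite strand. These were 22 of 253 annotated antisense genes of that kind, and 120 of the 253 were listed at 0 in both libraries. Of the 231 that were not members, 178 had a sense gene at 1 TPM or more in both libraries. Among the 22 pairs, 17 overlap, and in 14 the starts lie within 1000 bases on opposite strands. The antisense gene was the higher in 2 and the lower in 20, with a median difference of −2.36 on the log2(TPM + 0.1) scale. As a share of the sense level, 5 antisense genes were under 10%, 11 from 10% to under 25%, and 4 at 25% or more but below the sense gene. Across the 22 pairs, Pearson's r of the log2 levels was 0.297 and Spearman's rho 0.361.

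**Figure D4:**
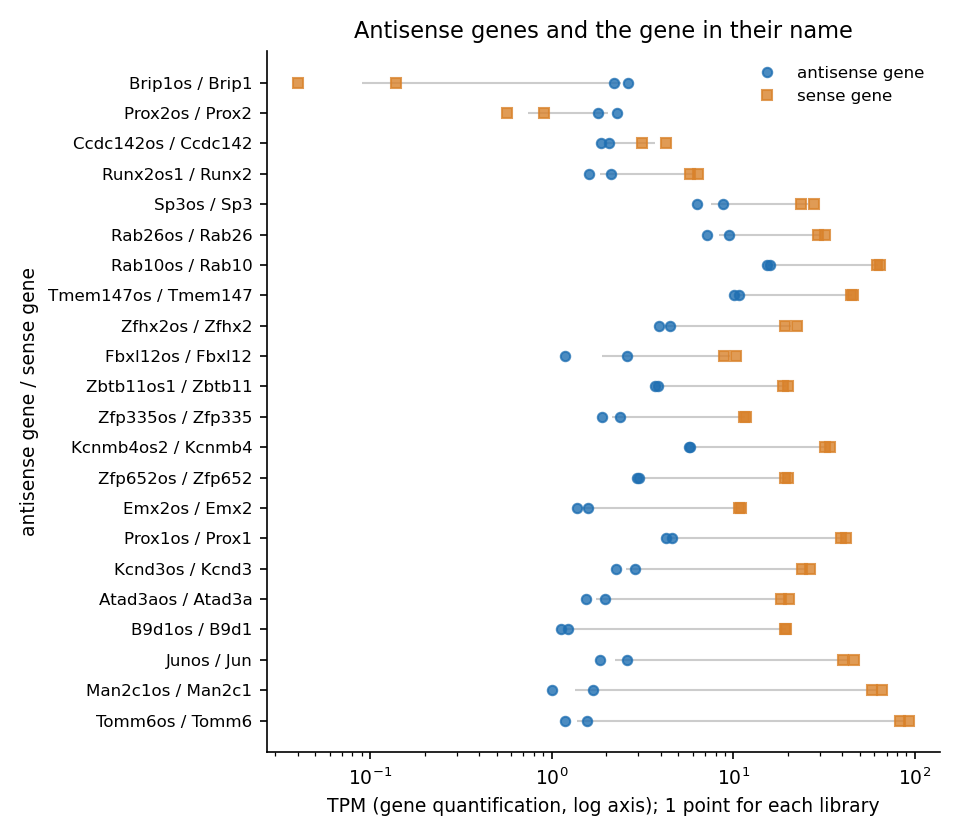
TPM of 22 antisense genes (circles) and of the sense gene in their name (squares) in each library, on a log axis, ordered by the antisense to sense ratio with the highest at the top. Brip1os and Prox2os lie to the right of their sense genes, and the other 20 lie to the left.

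Both exceptions had a sense gene under 1 TPM in the gene quantification, beside which the rule makes the antisense gene the higher. In the second quantification, described below, the means were 1.86 TPM for Brip1 and 1.21 TPM for Prox2. The antisense genes were still higher there, at 3.65 TPM for Brip1os and 3.15 TPM for Prox2os. Brip1os was at 2.63 and 2.20 TPM, against 0.14 and 0.04 TPM for Brip1, a DNA helicase of the Fanconi anaemia pathway of dividing cells. Prox2os was at 2.28 and 1.80 TPM, against 0.91 and 0.57 TPM for Prox2, a homeobox gene. By bases of overlap, however, Brip1os spans Ints2, an Integrator subunit at 11.71 and 10.37 TPM, and was the lower there. Brip1os starts 177 bases from Brip1 with a space between, and Prox2os overlaps Prox2 at the 3′ ends.

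Of the pairs on genes of membrane traffic and the endoplasmic reticulum, Rab10os was at 15.87 and 15.35 TPM against 64.4 and 61.8 TPM for Rab10, a GTPase of exocytosis, which it meets at the 3′ end. Rab26os was at 9.55 and 7.17 TPM inside Rab26, a GTPase of secretory and synaptic vesicles, at 31.9 and 29.3 TPM. Tmem147os was at 10.79 and 10.16 TPM, with its start 39 bases from that of Tmem147, a membrane protein gene at 45.8 and 44.7 TPM. All 3 stood at 23.2% to 27.3% of the sense level, apart from it by more than the libraries differed. In the second quantification Rab26os stood at 3.49% of Rab26, while Rab10os stood at 33.9% and Tmem147os at 28.1%.

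Of the pairs on transcription factors and other DNA-binding proteins, Sp3os was at 6.36 and 8.77 TPM against 27.9 and 23.5 TPM for Sp3, a GC-box binding factor. Prox1os was at 4.58 and 4.27 TPM against 41.7 and 39.4 TPM for Prox1, the homeobox gene that marks dentate granule cells, or 10.9% of it. Junos was at 2.62 and 1.86 TPM against 40.2 and 46.3 TPM for Jun, an AP-1 subunit. Emx2os, overlapping the start of the homeobox gene Emx2, was at 1.58 and 1.38 TPM against 10.82 and 11.03 TPM. Zfhx2os was at 3.89 and 4.49 TPM against 22.6 and 19.2 TPM for Zfhx2, a zinc finger homeobox gene. Runx2os1 was at 1.60 and 2.12 TPM inside Runx2, a factor of bone formation, at 6.43 and 5.81 TPM. The zinc finger genes Zbtb11, Zfp652 and Zfp335 had antisense partners at 19.4%, 15.3% and 18.4% of their levels. In every one of these pairs the sense gene was the higher in both libraries.

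Of the pairs on potassium channels, Kcnmb4os2 was at 5.75 and 5.79 TPM against 31.9 and 34.1 TPM for Kcnmb4, the neuronal beta subunit of the large-conductance calcium-activated channel. Kcnd3os was at 2.27 and 2.90 TPM against 26.4 and 23.8 TPM for Kcnd3, a channel of the transient outward current. Both antisense genes overlap the start of their sense gene, by 716 and 626 bases.

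Besides Junos at 6.52% and 4.01% in the libraries, the lowest shares of the sense level were on genes of mitochondria, cilia and glycan breakdown. Tomm6os was at 1.19 and 1.57 TPM against 83.0 and 93.2 TPM for Tomm6, a subunit of the mitochondrial import pore, or 1.57% of it. Man2c1os stood at 2.18% of Man2c1, a cytosolic mannosidase at 66.1 and 58.1 TPM. B9d1os and Atad3aos, whose starts lie 85 bases from those of the ciliary gene B9d1 and the mitochondrial gene Atad3a, stood at 6.08% and 9.11%. At the other end, Ccdc142os was at 2.07 and 1.88 TPM against 3.14 and 4.28 TPM for Ccdc142, or 65.9% and 43.9% of it. Fbxl12os, which does not overlap Fbxl12, an F-box gene of protein degradation, stood at 11.4% of it in replicate 1 and 29.2% in replicate 2.

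A list of 30 RNAs known as antisense to a gene or as overlapping one, written with earlier results known, had 22 genes in the files, of which 13 have antisense transcripts only. Of these, 2 were members, Emx2os and Dlx1as. The overlapping transcripts Sox2ot at 11.94 and 11.37 TPM, Sox1ot at 3.78 and 3.63 TPM, and Zeb2os at 2.25 and 2.55 TPM, passed 1 TPM but have transcripts of other classes. Listed at 0 in both were 6, Wt1os, Hoxa11os, Hoxd3os1, Hotairm1, Evx1os and Wincr1, several of them named after Hox genes. Tsix, the antisense partner of Xist, was at 0.19 and 0.12 TPM in these male mice.

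Whether reads were counted by strand bears on every antisense level, and the sources used here do not state it for these tables. The files were therefore examined for it. Of 52 antisense genes with at least 90% of their exonic bases inside exons of an overlapping coding gene of at least 10 TPM, 36 (69.2%) were listed at 0 in both libraries. Their median level was 0% of the coding gene's, with a 90th percentile of 0.387%. The highest of the 52, and the only member among them, was Gm11175 inside Jund, at 21.3% of its level. Gm11175 had 118 and 138 expected counts, against 32 and 38 in the second quantification. Expected counts were whole, within 0.005, for 164 of the 172 members in replicate 1 and 162 in replicate 2. Among the 136 with exon on exon they were whole for 128 and 126. In the second quantification, fewer were whole, 117 and 114 of the 172 and 90 and 88 of the 136, so how many members had reads split with another gene depended on the quantification. In the gene quantification, the 11 with a fractional count in a library included Tug1, Tmem147os, Zfhx2os and Gm20687, and Zfhx2os and Gm20687 both overlap Zfhx2.

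Between the libraries the members lay close together, which the rule in part sets. It required 1 TPM in both of these libraries and so left out the 56 antisense genes that reached 1 TPM in exactly 1. Across the 172, Pearson's r on log2(TPM + 1) was 0.960 and Spearman's rho 0.916, over genes that share both libraries. At least 50 expected counts in both were reached by 88 members, and 84 fell below that in a library, with 5 under 10 counts. Among the 88, 0 were at least 2-fold higher in replicate 1 and 1 was at least 2-fold lower, against 0.151% and 0.122% of all 13916 genes with such counts, or 0.273% either way. The median log2 ratio of replicate 1 over replicate 2 was 0.04 with an SD of 0.25, against 0.04 and 0.20 over all genes. It was higher in replicate 1 for 53, lower for 34 and equal for 1, or 60.2% higher, against 62.6% over all genes.

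Fbxl12os was the member 2-fold apart, with 1.18 TPM in replicate 1 and 2.59 in replicate 2. Its expected counts of 50 and 72 were closer than its TPM. Its most abundant transcript of 5 held 22.9% of its TPM in replicate 1 and 59.1% in replicate 2, so the split among its transcripts moved along with its TPM.

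**Figure D5:**
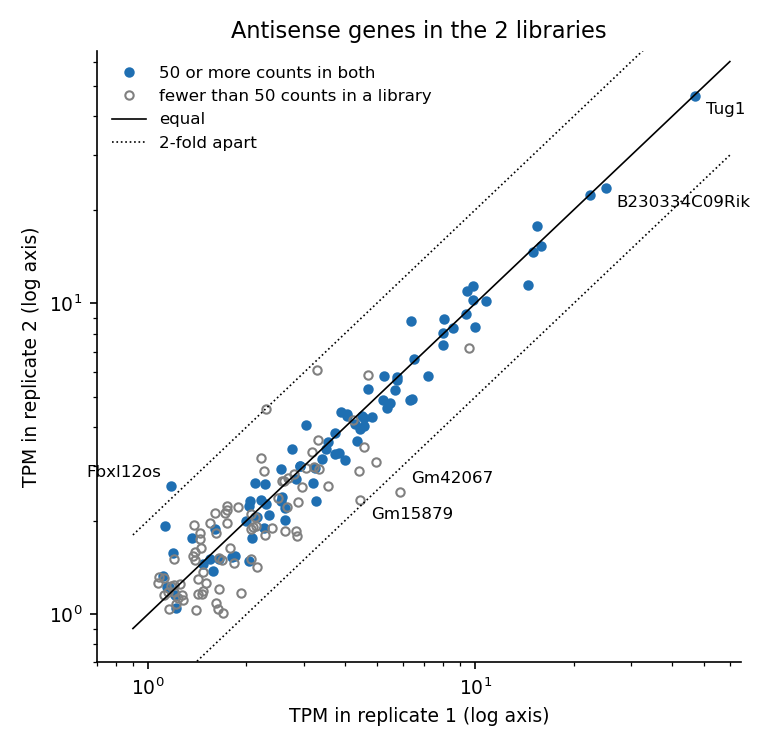
TPM of the 172 antisense genes in replicate 1 (horizontal log axis) against replicate 2 (vertical log axis). Filled points have at least 50 expected counts in both libraries, and among them Fbxl12os alone, at 1.18 and 2.59 TPM, lies beyond a dotted 2-fold line.

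By the deposited TPM intervals, whose coverage is not given in the sources used here, 3 members did not overlap between the libraries, against 5.63% of the 14560 genes at 1 TPM in both. All 3 were higher in replicate 1, a direction that 4.59% of those genes took, against 1.04% for the other. Gm42067, at the start of the chromatin gene Dpf2, had 5.91 TPM in replicate 1 and 2.48 in replicate 2, on 57 and 28 expected counts. Gm15879, on Dnase1, was at 4.46 and 2.33 TPM, on 63 and 34 counts. B230334C09Rik, at 25.18 and 23.43 TPM, differed by 0.10 on the log2 scale, a small difference on 4999 and 4778 counts. Its TPM lay outside its own deposited interval in both libraries, above upper bounds of 25.13 and 23.40 TPM, so that this non-overlap rests on intervals that do not hold the values.

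A second quantification, made by the authors directly from the reads and in the layout of kallisto, gave higher values. The median ratio of second to gene quantification was 1.77 over members and 1.69 over all genes at 1 TPM in both. Of the 172, 163 reached 1 TPM in both libraries there as well, and 3 were listed at 0 in both. Across members, Pearson's r of the log2(TPM + 1) levels was 0.813 and Spearman's rho 0.798. Applied there, the rule chose 380 genes, among them 163 of the 172.

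The 3 at 0 in the second quantification were Gm45533, Gm29155 and Snhg9, with at most 10 expected counts in a library. Snhg9, the host gene of the small nucleolar RNA Snora78, rested on 4 counts in each library. Rab26os, whose exon holds the small nucleolar RNA Snord60, was at 1.98 and 1.57 TPM in the second quantification, against 9.55 and 7.17 TPM in the gene quantification. 2900060B14Rik, with a small nuclear RNA gene in its exon, was at 0 and 0.216 TPM in the second quantification, against 2.15 and 1.42 TPM. Gm11973, at the start of Purb, a gene of a DNA- and RNA-binding protein, stood at 0.0425 times its gene quantification level. In all, 8 members span a small RNA gene on the same strand, and the part of such RNAs in these levels was not tested.

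At the other end, 6 members were over 3 times higher in the second quantification, led by 9430065F17Rik at 5.95 times, Gm2164 at 4.02 times and Gm26782 at 3.59 times. The others were Gm15860, A830082K12Rik and Gm11767, at 3.50, 3.16 and 3.04 times. Transcript use was described for the 99 members with 2 or more transcripts. The most abundant one held a median of 61.7% of the gene's TPM and over 50% in 76 of them, and it was the same transcript in both quantifications in 73. Brip1os had 98.4% in 1 of 2 transcripts, while E130307A14Rik had 24.8% in the first of 13. For Kcnd3os the leading transcript held 46.6% in the second quantification, where another led, against 82.3% in the first.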

How the data were processed

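For each library the authors deposited 1 table of genes and 2 of transcripts. The deposited text listings name the mm10 build and GENCODE M21. The gene and first transcript tables came from a transcriptome alignment, the second transcript table directly from the reads. Which programs made them is not stated in the labels or headers. The expected count, per the file headers, is an estimate of reads per gene or transcript, and the deposited TPM is scaled over all entries, spike-ins included. The interval bounds of TPM are the authors'. Reads of the CAST/EiJ haplotype were assigned to the C57BL/6J reference, and what this lost was not measured.

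Transcript classes came from the transcript identifiers of the second table. Positions came from GENCODE M21 in Python 3.11.15 with pandas 2.3.3, and expected counts were rounded for the TMM factors of edgeR 4.0.16 in R 4.3.3. The sense gene was the opposite-strand coding gene with most overlapping bases, or the gene in the name. Pair differences used log2(TPM + 0.1), and replicate ratios genes of at least 50 expected counts in both libraries. The position and ratio steps were tested on simulated data. Intervals and whole-count checks cover counting and assignment error only. With 1 group, nothing was tested. The sequence between the starts of 1 further pair is not reported here. Named were the 15 highest members, all os pairs, members 2-fold apart, the 10 highest pair ratios, the genes at the rule's border, the extremes of the second quantification, the 5 highest with near starts, and a list of known antisense or overlapping RNAs. The members and lists were chosen with earlier results of these data known. Alternatives were other TPM, count, base and overlap limits, pseudocounts, TMM scaling, the second quantification and each library alone.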

Additional observations from a re-analysis of the deposited data

How the results depend on the processing

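The antisense gene stayed the lower partner at the median of the os pairs and of the overlap pairs in every alternative run for them. A TPM threshold of 0.5 or 2 gave 301 or 96 genes, against 172, and the second quantification 380; each library alone gave 196 to 203. The median member level was 4.04 TPM in the second quantification, against 2.4, and 2.315 to 2.44 TPM with each library alone. Members 2-fold apart numbered 2 at a minimum of 10 counts or with none, and 0 with TMM scaling or in the second quantification, against 1. The median replicate ratio, 0.04 on the log2 scale, was −0.01 with TMM scaling. With the coding gene at 1 TPM or more, the antisense gene was higher in 0 os pairs and 14 overlap pairs, against 2 and 38. The os median of −2.36 was −2.09 with a pseudocount of 1, −2.30 in the second quantification, −2.44 with the sense filter and −2.48 to −2.40 with each library alone. The overlap median of −2.29 was −2.04, −2.42 and −2.79 in those settings and −2.31 to −2.20 with each library alone. The pair correlation of −0.111 was −0.0643 and −0.146 with pseudocounts of 1 and 0.01, −0.166 in the second quantification, −0.122 to −0.0953 with each library alone and 0.0943 with the sense filter, a change of sign. At least 50% of exonic bases lay on opposite exons in 21 members, against 136 with any. Antisense genes at 0 inside coding exons numbered 86 of 165 (52.1%) at 50% of bases, where the 90th percentile was 4.20% of the coding level, and 2 of 4 for coding genes of 100 TPM or more, against 36 of 52 (69.2%) and 0.387%. The median of the named genes was 3.22 TPM in the second quantification, against 2.4, and 2.33 to 2.39 TPM with each library alone; 59 of the 69 named genes above 0 were higher in the second quantification. Their median leading-transcript share was 46.6% there, against 64.2%. The causes were not tested. No paired analysis was possible because the libraries form 1 group. Low counts limit 84 members with under 50 counts in a library, and the strand setting of the counting is not given in the sources used here.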
